A study of Mus musculus with 4 samples.

Results

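The Notch receptors, ligands and targets are 10 genes that endothelial cells of the heart use to signal to their direct neighbours: the receptors Notch1, Notch2 and Notch4, the ligands Dll4, Jag1 and Jag2, and the target genes Hey1, Hey2, Heyl and Hes1. They were chosen by name, with earlier results of these data known, and are 10 of the 27998 genes counted. They were followed in cells sorted into classes by gates on other genes. A cell was called endocardial when its UMIs of Npr3 and Tmem108 outnumbered those of Fabp4, Cldn5 and Aplnr. It was called coronary when it held at least 2 UMIs of these last 3 genes and more of them than of the endocardial pair. It passed the artery gate with at least 3 UMIs of Cxcl12, Glul, Alpl and Nebl together. A UMI, or unique molecular identifier, marks 1 captured transcript. Levels are given as CPM, the UMIs of a gene divided by all UMIs of the class and multiplied by 1000000, with exact 95% intervals that cover counting error only.

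The cells were CD31+/CD45- cells of C57Bl6J mouse hearts, untreated and without a mutation named in the labels, taken at embryonic day 12 (E12), at E15, 2 days after birth (P2) and from adults of 8 weeks. Each stage was 1 library from pooled hearts, with pools of 37 (E12), 48 (E15), 21 (P2) and 6 animals (adult). The stages also differed in digestion and in whether dead cells were removed with a kit (E12, E15) or by a second sort (P2, adult), and all cells had been frozen, so that stage and handling cannot be told apart. With 1 library per stage no test between stages or classes was possible, and ratios carry counting error only. A ratio is called past 2-fold when it is at least 2 or at most 0.5 and rests on at least 20 UMIs over both classes. A class without a UMI was read at a floor of 3 counts.

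Notch receptors are membrane proteins that are cut when a ligand on a neighbouring cell pulls on them. The freed intracellular part enters the nucleus, joins the DNA-binding protein RBPJ and switches on genes of the Hes and Hey families, which encode repressors. In blood vessels, Dll4 on sprouting tip cells restrains sprouting in the cells behind them, and Jag1 can act against Dll4 in sprouting. Dll4 and Notch signalling favour arterial over venous fate. In the embryonic heart Notch1 in the endocardium takes part in the formation of valves and trabeculae.

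RBPJ binds the core TGGGAA, most often within GTGGGAA, and a promoter that holds it is a candidate for direct control. The promoter windows (250 bases before to 50 after the RefSeq start, GRCm38.p6) were therefore searched on both strands for TGGGAA, which reads TTCCCA on the other strand. A window was at hand for 7 of the 10 members (Notch1, Notch2, Notch4, Dll4, Jag1, Jag2 and Hey2). That of Notch1 (chr2:26503773-26504072) lies inside the gene span given below (chr2:26457903-26516663, minus strand) and not at the start of that span. The core was found in 1 of the 7, Hey2, whose window carried it at 2 places, 207 and 3 bases before the start, both within GTGGGAA. Of all 32851 windows, 25.6% held TGGGAA and 6.38% held GTGGGAA. A match is a description of the letters, and no match says nothing of RBPJ binding elsewhere. The windows of this target and of the ligand with the clearest coronary pattern are shown, with the core in capitals, read 5′ to 3′ on the strand of the gene.
Hey2 (chr10:30842734-30843033, minus strand): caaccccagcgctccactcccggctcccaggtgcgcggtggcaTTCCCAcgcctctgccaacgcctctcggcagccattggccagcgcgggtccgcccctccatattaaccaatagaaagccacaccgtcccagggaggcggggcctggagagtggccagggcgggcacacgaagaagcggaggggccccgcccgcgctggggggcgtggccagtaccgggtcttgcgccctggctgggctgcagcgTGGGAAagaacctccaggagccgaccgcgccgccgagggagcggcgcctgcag
Dll4 (chr2:119325534-119325833, plus strand): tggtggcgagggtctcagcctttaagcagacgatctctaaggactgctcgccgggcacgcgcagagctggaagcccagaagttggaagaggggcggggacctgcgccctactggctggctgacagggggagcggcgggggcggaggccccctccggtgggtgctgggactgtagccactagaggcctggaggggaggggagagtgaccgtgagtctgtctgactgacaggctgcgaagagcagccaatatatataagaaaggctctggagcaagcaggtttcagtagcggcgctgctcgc

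The file of E12 held all droplets, of which those past a UMI minimum were taken as cells, and the other files held called cells. After the limits of the study on UMIs, genes, mitochondrial share and doublet score, 5257, 5380, 5510 and 3994 cells were kept from E12 to the adult, with a median of 1209, 973, 4420.5 and 1472.5 UMIs. Non-endothelial cells, lymphatic cells and cells expressing immediate early genes, which the study also removed, were not taken out here. The endocardial gate held 1552, 1872, 1053 and 65 of the kept cells, and the coronary gate 102, 1092, 4262 and 3851. Libraries shared 25 to 60 cell barcodes per pair. Markers outside the gates followed the names. The 8 endocardial markers (Nfatc1, Plvap and others) summed to 1356 to 5323 CPM in endocardial and 284 to 869 CPM in coronary cells. The 8 coronary markers (Cd36, Gpihbp1 and others) summed to 24.3 to 343 CPM in endocardial and 462 to 9756 CPM in coronary cells. The coronary gate also took in cells with lymphatic markers, above all Ccl21a: all 6 lymphatic markers were detected, at 799, 522, 975 and 106 CPM in sum. At E12 this was above the 462 CPM of the coronary markers, and 28 of the 102 coronary cells held a lymphatic UMI. A UMI of the capillary gene Fabp4 was found in 73.6% of the endocardial cells of P2 and 70.8% of those of the adult, where free RNA and expression cannot be told apart, against 0.387% and 2.62% at E12 and E15. Fabp4 is a gate gene, and the gate bars cells in which it is not outnumbered, above all shallow ones. Endocardial cells held a median of 1242.5, 959, 4534 and 2374 UMIs from E12 to the adult, so these shares cannot be compared between stages.

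In the embryo, the endothelial markers of artery-gated cells went against the name of the gate. At E12 it took 287 cells, of which 0 passed the coronary gate and 244 neither of the other gates. Over all 287 cells, 7 endothelial markers summed to 257 CPM, where endocardial cells held 1846 CPM, and 8 mesenchymal markers to 2493 CPM. At E15 35 of 58 artery-gated cells were in neither gate, and over all 58 the mesenchymal markers summed to 5691 CPM. The 8 artery markers outside the gate went with the name, at 3881 CPM (E12) and 6425 CPM (E15), of which Eln held 2500 and 4747 CPM. The artery-gated cells of the embryo are therefore called artery-gated and not arterial. Cells that pass both the coronary and the artery gate are called artery cells below. There were 0, 14, 618 and 1738 such cells from E12 to the adult. At P2 their 8 artery markers outside the gate (Gja5, Sox17 and others) summed to 3199 CPM, against 1257 in other coronary cells, and in the adult to 1785 against 704 CPM. Eln was alike in the 2 groups of P2, at 800 and 781 CPM. The 8 coronary markers outside the gate (Cd36, Gpihbp1 and others) were not lower in artery cells. They summed to 5169 against 4948 CPM at P2 and 9934 against 9571 CPM in the adult. The class thus carried coronary markers as well, and how many of its cells are capillary was not tested. The gate grows easier to pass with depth. At 500 UMIs per cell, the artery gate held 145 of 3672 coronary cells at P2 (3.95%) and 606 of 3725 in the adult (16.3%), against 14.5% and 45.1% of cells at full depth.

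The level of each member by class and stage is plotted first. Hes1 was the most abundant member in both classes at each stage apart from coronary cells of E12, where Jag1 was higher, and Notch1 was the leading receptor in coronary cells at all 4 stages. Counts of the 3′ end do not depend on transcript length in the way full-length reads do, but capture differs between genes, so levels of different genes are compared here only in order of size. The 3 receptors followed different patterns. Between endocardial and coronary cells, the ligands Dll4 and Jag2 and the target Hey1 leaned to the coronary side, and Notch2 to the endocardial side.

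**Figure D1:**
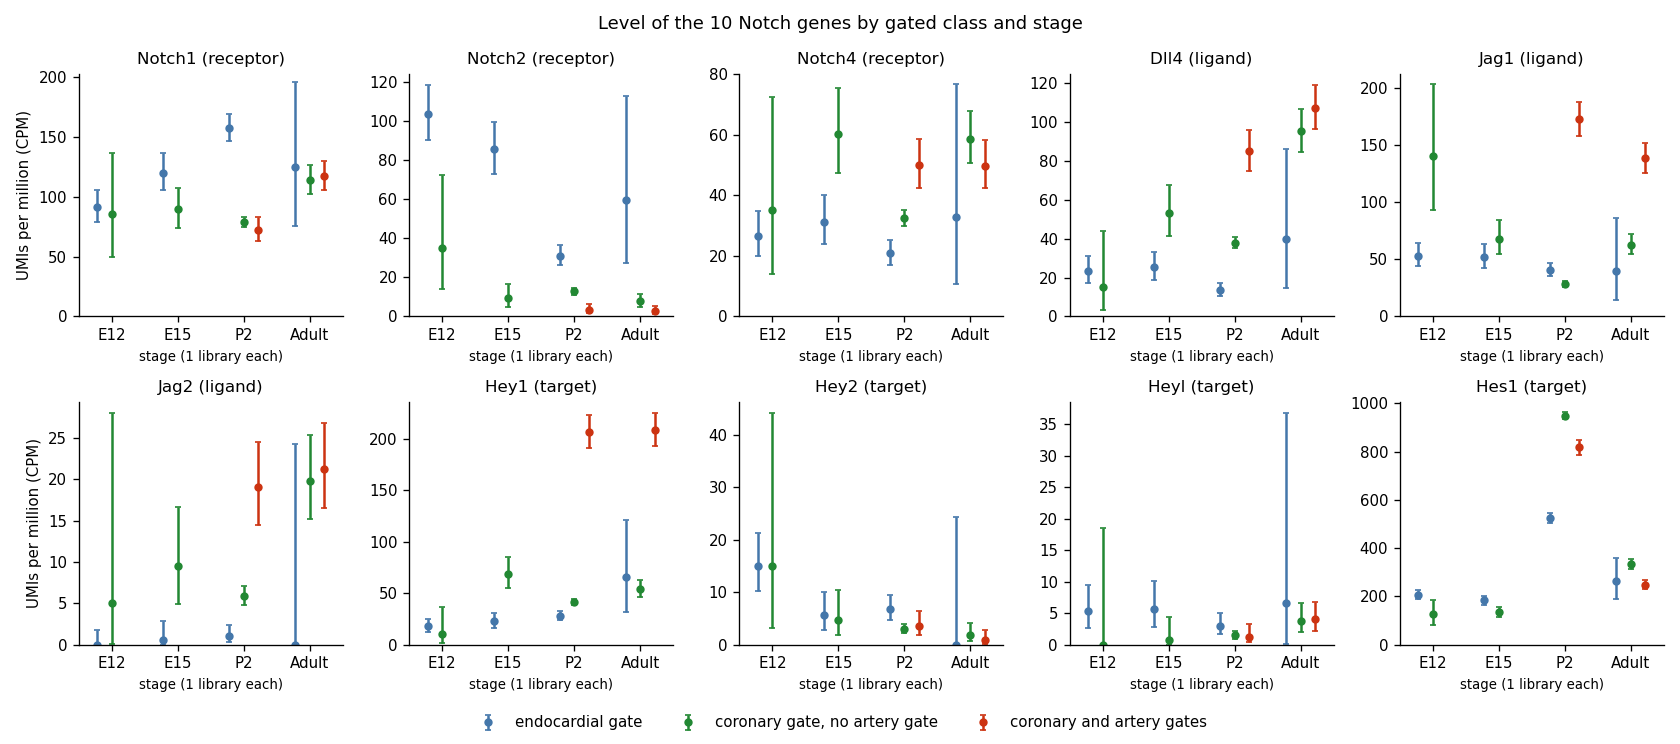
Level of each of the 10 members in CPM (vertical axis, linear, a scale for each gene) from E12 to the adult, in cells of the endocardial gate (blue), the coronary gate without the artery gate (green) and both the coronary and artery gates (red). Each point is a class of 1 library, bars are exact 95% Poisson intervals for counting error, and groups under 50 cells are not drawn. Hey1 stands at 207 and 208 CPM in the artery groups of P2 and the adult, above every other group, and Notch2 is highest in endocardial cells at every stage.

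Among the receptors, Notch1 (chr2:26457903-26516663, minus strand, GRCm38), the main receptor of the endothelium, had the smallest fold range of levels over both classes and all stages. It stood at 91.7, 120.3, 158 and 125 CPM in endocardial cells of E12, E15, P2 and the adult (189, 234, 786 and 19 UMIs). In coronary cells it stood at 85.4, 90.8, 77.7 and 116 CPM (17, 116, 1597 and 740 UMIs). The intervals of the classes overlapped at E12 and in the adult, and at E15 the ratio of coronary to endocardial cells was 0.755 (0.599 to 0.947). At P2 coronary cells held the lower level, with a ratio of 0.493 (0.452 to 0.537), which lay just short of 2-fold when the CPM were rescaled (0.538) and when cells rich in immediate early genes, dividing cells or cells with a lymphatic UMI were left out (0.513 to 0.53). In the order of the 10 groups of the plot of levels, from P2 endocardial cells at the top to P2 artery cells at the bottom, the intervals of all neighbours overlapped. Those of the top (147 to 169) and the bottom (63.5 to 82.8) did not.

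Notch2 (chr3:98013527-98150361, plus strand), a receptor known from mural and mesenchymal cells, was higher in endocardial than in coronary cells. It was not the leading receptor of endocardial cells from E15 on, where Notch1 stood at 120, 158 and 125 CPM. Endocardial cells held 103, 85.4, 31.1 and 59.4 CPM over the 4 stages, and coronary cells held 35.2, 10.96, 11.4 and 5.17 CPM. Coronary levels were lower than endocardial ones at every stage. Cells outside all gates held 150, 120, 27.1 and 128 CPM, so that Notch2 was not confined to the endocardial class. In the embryo, the ratio of coronary to endocardial cells was 0.34 (0.135 to 0.714) for E12 and 0.128 (0.0687 to 0.222) for E15. After birth it was 0.368 (0.299 to 0.453) for P2 and 0.0871 (0.0408 to 0.207) for adult cells. The E12 value rests on 7 coronary UMIs, and it became 0.572 once cells with more UMIs of other cell types than of endothelial markers were left out. Mesenchymal markers were also higher in endocardial cells, at 912, 820.2, 1541 and 2876 CPM against 121, 217, 409 and 386 in coronary cells. In endocardial cells, mesenchymal markers and Notch2 were both lower at E15 than at E12, and both higher in the adult than at P2. From E15 to P2 mesenchymal markers were higher where Notch2 was lower. The part of mesenchymal cells in the Notch2 levels was not tested. Without the cells richer in UMIs of other cell types, the Notch2 ratio stayed under 0.5 at E15 (0.0509), P2 (0.237) and in the adult (0.0546). The artery-gated cells of E12, which carried the mesenchymal markers, held 296 CPM (246 to 353), the highest Notch2 level of all classes of the 4 stages. In the order of the 10 groups, neighbours overlapped apart from P2 endocardial cells and the P2 coronary cells next below them, so that every endocardial group stood above every coronary group from E15 on.

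Notch4 (chr17:34564268-34588503, plus strand), a receptor found mainly in endothelium, leaned to the coronary side. Endocardial cells held 26.7, 31.4, 20.9 and 32.98 CPM, and coronary cells 35.2, 60.3, 35.1 and 54.2 CPM. The ratio was 1.92 (1.36 to 2.73) at E15 and 1.68 (1.37 to 2.09) at P2, both above 1 and short of 2-fold, while the intervals of E12 and the adult held 1. In the order of its groups all neighbours overlapped, from coronary cells of E15 at the top to endocardial cells of P2. The intervals of these 2 ends, 47.5 to 75.4 and 17.04 to 25.3 CPM, did not overlap.

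Dll4 (chr2:119325784-119335962, plus strand), the ligand of tip and arterial cells, was higher in coronary than in endocardial cells from E15 on. Endocardial cells held 23.3, 25.2, 13.4 and 39.6 CPM (48, 49, 67 and 6 UMIs). Coronary cells held 15.1, 54.01, 44.9 and 101 CPM (3, 69, 923 and 646 UMIs). The coronary level was thus the lower of the pair at E12, where it rests on 3 UMIs, and the higher one afterwards. The ratio was 2.14 (1.46 to 3.16) at E15. After birth it was 3.34 (2.61 to 4.35) at P2 and 2.56 (1.17 to 7.0) in adult cells, the last from 6 endocardial UMIs. At E12 the RNA of empty droplets held 25.8 CPM (14.8 to 41.97) of Dll4, about the share seen in the endocardial cells. This CPM gives the make-up of free RNA and not its amount in a cell. The 155236 empty droplets held 619013 UMIs in all, where endocardial cells of E12 held a median of 1242.5 each. The part of free RNA in the Dll4 of cells was not tested. The same droplets held Notch1 at 108 CPM (83.9 to 137), Jag1 at 80.8 CPM (59.95 to 106), Hey1 at 38.8 CPM (24.8 to 57.7) and Hes1 at 144 CPM (115 to 177). As a share, Hey1 of E12 was thus lower in endocardial cells than in free RNA. Of the 10 members, Notch2 and Hes1 of endocardial cells alone had shares with intervals above those of free RNA. The order of the Dll4 groups ran from artery cells of the adult to endocardial cells of P2, with a gap between the intervals of P2 artery cells and E15 coronary cells, and another between other coronary cells of P2 and endocardial cells of E15.

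Jag1 (chr2:137081456-137116644, minus strand), a ligand of arterial endothelium and of many other tissues, differed least between the classes at P2 and more at E12 and in the adult. Endocardial cells held 53.4, 52.5, 41.1 and 39.6 CPM, a narrow range. Coronary cells held 141, 77.5, 50.3 and 101 CPM. At E12 the ratio was 2.64 (1.68 to 4.02), but the 28 coronary UMIs came from 10 of 102 cells, 1 of them with a lymphatic UMI, and up to 7 from a single cell. The ratio was 1.48 (1.11 to 1.97) at E15 and 1.22 (1.05 to 1.43) at P2. In the adult it was 2.56 (1.17 to 7.01), and 1.98 without cells holding a lymphatic UMI. At P2 the endocardial level lay between those of coronary cells without and with the artery gate, which were 28.6 and 173 CPM with no overlap of the 3 intervals. Jag1 was also uneven over cells, with 1.96 UMIs per positive coronary cell at P2, against 1.29 for Dll4.

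Jag2 (chr12:112907819-112929776, minus strand), the third ligand, was scarce and coronary. Endocardial cells held 0, 1, 5 and 0 UMIs of it from E12 to the adult, and coronary cells 1, 12, 161 and 131. The coronary level was 5.02, 9.39, 7.83 and 20.5 CPM. At P2 the ratio was 7.81 (3.28 to 24.4). In the adult, 0 endocardial UMIs leave a level of up to 24.3 CPM, above the coronary level, so that no difference was detectable at this depth.

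Of the targets, Hey1 (chr3:8663359-8667256, minus strand), a transcriptional repressor that takes part in arterial fate, shared the coronary pattern of Dll4. Endocardial cells held 17.95, 22.6, 28.1 and 65.96 CPM (37, 44, 140 and 10 UMIs), and coronary cells 10.05, 70.5, 66.5 and 133 CPM (2, 90, 1368 and 847 UMIs). From E15 on the coronary level was the higher. At E15 the ratio was 3.11 (2.15 to 4.57). For P2 it was 2.37 (1.99 to 2.84) and for adult cells 2.01 (1.09 to 4.21). It was under 2 at P2 without the cells rich in immediate early genes (1.88), and in the adult under 4 other settings (1.59 to 1.94).

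Hey2 (chr10:30832359-30842801, minus strand), the relative of Hey1 that is known from ventricular myocardium and from arterial precursors, was scarce. It had 31, 11, 34 and 0 UMIs in endocardial and 3, 6, 64 and 9 UMIs in coronary cells, with levels of 15.04, 5.66, 6.82 and 0 CPM and 15.1, 4.7, 3.11 and 1.41 CPM. The 1 comparison with a ratio past 2-fold was P2, where coronary cells were at 0.457 (0.297 to 0.714) of the endocardial level, and this became 0.55 when each cell weighed the same. The promoter with 2 RBPJ cores thus belongs to a gene at or under 15.1 CPM in every gated endothelial class.

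Heyl (chr4:123233556-123249875, plus strand), a target known from smooth muscle, stayed under 7 CPM in both classes at each stage. Coronary cells of P2 were at 0.485 (0.253 to 0.97) of the endocardial level, from 30 and 15 UMIs. The artery-gated cells of E12 held 40.9 CPM (23.8 to 65.5), where mural markers summed to 1968 CPM.

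Hes1 (chr16:30064384-30067796, plus strand), a target that also answers to other pathways, had ratios in opposite directions at different stages. Endocardial cells held 208, 183, 526 and 264 CPM, and coronary cells 126, 135, 928 and 290.4 CPM. The coronary level was lower at E12, with a ratio of 0.605 (0.387 to 0.905), and at E15, with 0.735 (0.609 to 0.885). At P2 it was higher, at 1.77 (1.7 to 1.84), and in the adult the interval held 1, at 1.1 (0.805 to 1.55). The difference between stages was not tested. In the order of its groups, the 3 groups of P2 stood above all others without overlap, and those of E12 and E15 at the bottom.

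**Figure D2:**
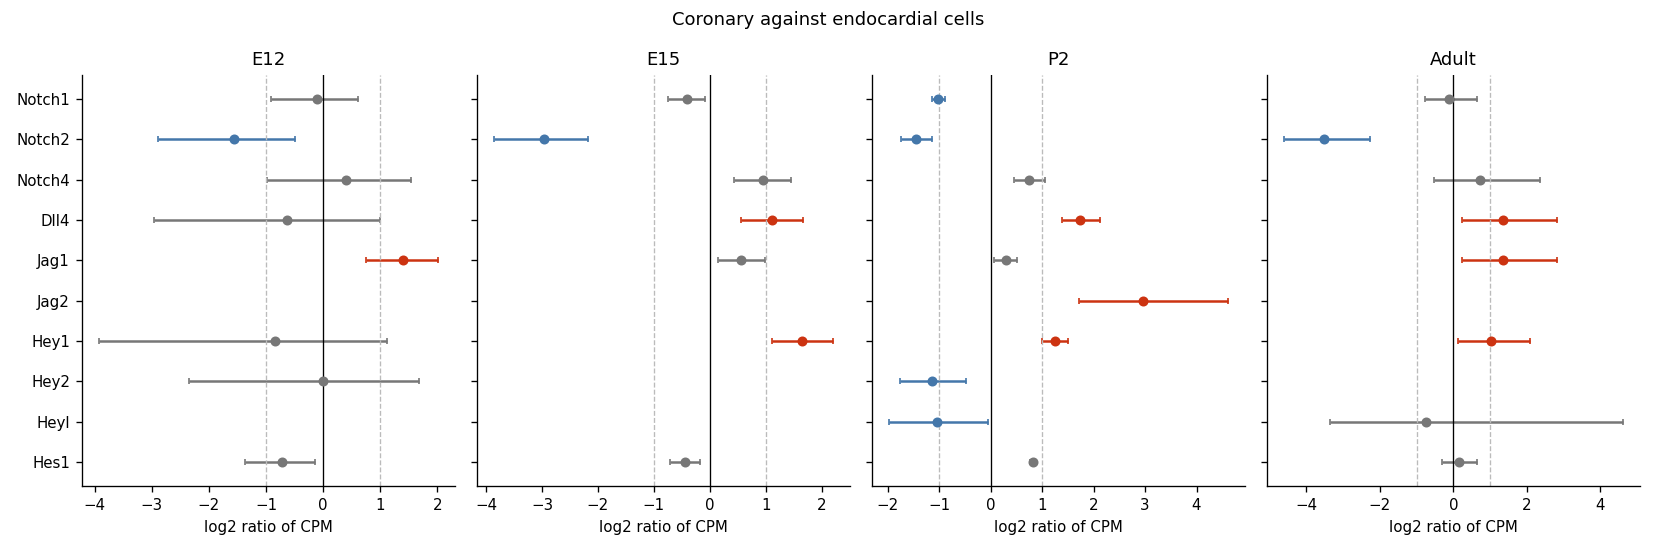
Log2 ratio of the CPM of coronary to endocardial cells (horizontal axis, a scale for each stage) for each member, with exact 95% intervals for counting error. Dashed lines mark 2-fold, colours mark ratios past it (red higher, blue lower, grey between), and members under 20 UMIs or with 0 UMIs in a class are not drawn. Notch2 lies to the left at all 4 stages, and Dll4 and Hey1 to the right at E15, P2 and in the adult.

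Over the 10 members, coronary cells were at least 2-fold higher for 1 member at E12 (Jag1, all genes 5.74%), 2 at E15 (Dll4, Hey1; 6.33%), 3 at P2 (Dll4, Jag2, Hey1; 11.3%) and 3 in the adult (Dll4, Jag1, Hey1; 12%). They were at least 2-fold lower for 1 member at E12 (Notch2, all genes 17.9%), 1 at E15 (Notch2; 13.6%), 4 at P2 (Notch1, Notch2, Hey2, Heyl; 10.8%) and 1 in the adult (Notch2; 15%). Of the 10 members, 8, 7, 10 and 9 had the 20 UMIs needed from E12 to the adult. Their median log2 ratio was -0.365, 0.563, 0.521 and 0.139, against -0.106, -0.131, -0.0881 and 0 over all genes with enough UMIs, where a gene at 0 in one class was set at its bound (or at no difference where the bound gave none), as were many genes against the 65 adult endocardial cells. The upward share of the members was above that of all genes from E15 on, where at E12 it is a single gene, and the downward share was near it at all stages but P2. These counts describe 10 genes that were chosen with earlier results of these data known, and they were not tested.

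Artery cells were described within coronary cells, by comparing those that pass the artery gate with those that do not. At P2, 4 members were at least 2-fold higher in artery cells (Jag1, Hey1, Jag2 and Dll4; all genes 3.41%) and 1 was lower (Notch2; 8.15%). In the adult, 2 were higher (Hey1 and Jag1; 1.96%) and 1 lower (Notch2; 4.24%). At E15, 4 members were past 2-fold upwards (Notch1, Dll4, Jag1, Hey1), where all genes were at 20.4%, and none downwards (2.84%), with 14 artery cells. Among these only Jag1 had an interval above 1, at 11.7 (5.98 to 21.04) from 13 UMIs in 5 cells. The E15 artery cells also held mesenchymal markers at 980.1 against 207 CPM and mural markers at 368 against 68.2 CPM in other coronary cells, and all artery-gated cells of E15 held 419.6 CPM of Jag1. The part of these cell types in the ratio was not tested. At E12 no coronary cell passed the artery gate, and no comparison was made.

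Jag1 had the largest ratio of the members at P2. It was 173 CPM (158 to 188) in artery cells and 28.6 CPM (26.1 to 31.2) in other coronary cells, a ratio of 6.05 (5.34 to 6.84). In the adult it was 139 CPM (126 to 152) and 62.9 CPM (54.4 to 72.3), a ratio of 2.2 (1.86 to 2.62), and 1.88 with all gates set at 500 UMIs per cell. Neither pair of intervals overlapped.

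Hey1 was high in artery cells at both stages. Artery cells held 207 CPM (191 to 223) at P2 and 208 CPM (193 to 225) in the adult, and other coronary cells 41.7 CPM (38.7 to 44.8) and 54.3 CPM (46.4 to 63.1). The ratios were 4.96 (4.45 to 5.52) and 3.84 (3.24 to 4.57). They were 5.11 and 2.21 with all gates set at 500 UMIs per cell.

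The other ligands were higher in artery cells at P2, and in the adult their intervals held 1. Dll4 was 84.9 CPM (74.98 to 95.8) against 37.8 CPM (34.97 to 40.8) at P2, a ratio of 2.25 (1.94 to 2.6), and 107 CPM (96.2 to 119) against 95.1 CPM (84.6 to 107) in the adult, a ratio of 1.13 (0.962 to 1.32). Jag2 had a ratio of 3.26 (2.33 to 4.54) at P2 and of 1.07 (0.751 to 1.54) in adult cells. For both ligands the intervals of the 2 stages did not overlap, and the adult levels of other coronary cells were close to those of artery cells. The difference between the stages was not tested. The P2 ratio of Dll4 was 1.98 with gates set at 500 UMIs. Since the adult artery gate took a larger share of coronary cells than that of P2, the classes of the 2 stages may not match, which was not tested.

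Of the receptors, Notch2 was past 2-fold downwards at both stages, and Notch1 and Notch4 were not past it. Notch1 was at 0.925 (0.8 to 1.07) at P2 and at 1.03 (0.888 to 1.19) in adult cells, both intervals holding 1. Notch4 was at 1.54 (1.28 to 1.84) and 0.849 (0.683 to 1.05). Notch2 was lower in artery cells, at 0.277 (0.136 to 0.505) from 11 artery UMIs and 0.362 (0.148 to 0.806) from 9, and the adult value moved to 0.549 with no limits on cells and 0.957 with gates at 500 UMIs. Markers of other cells went both ways in artery cells. Macrophage markers were higher, at 5.17 against 2.23 CPM at P2 and 104 against 29.7 CPM in the adult. Epicardial markers were also higher, at 155 against 115 CPM and 96.4 against 59.4 CPM. Lymphatic and mesenchymal markers were among those that were lower. Lymphatic markers were 151 against 1121 CPM at P2, and mesenchymal markers 105 against 463 CPM at P2 and 179 against 601 CPM in adult cells. Of the 235 coronary Notch2 UMIs of P2, 106 were in cells with a lymphatic UMI, and the part of lymphatic cells in the Notch2 ratio was not tested. Without cells richer in markers of other types than in endothelial ones, the Notch2 ratios were 0.396 and 0.54. Hes1 was lower in artery cells at both stages, at 0.863 (0.827 to 0.9) and 0.746 (0.679 to 0.818), in the opposite direction to Hey1. Hey2 and Heyl had 11 and 4 artery UMIs at P2 and intervals that held 1.

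**Figure D3:**
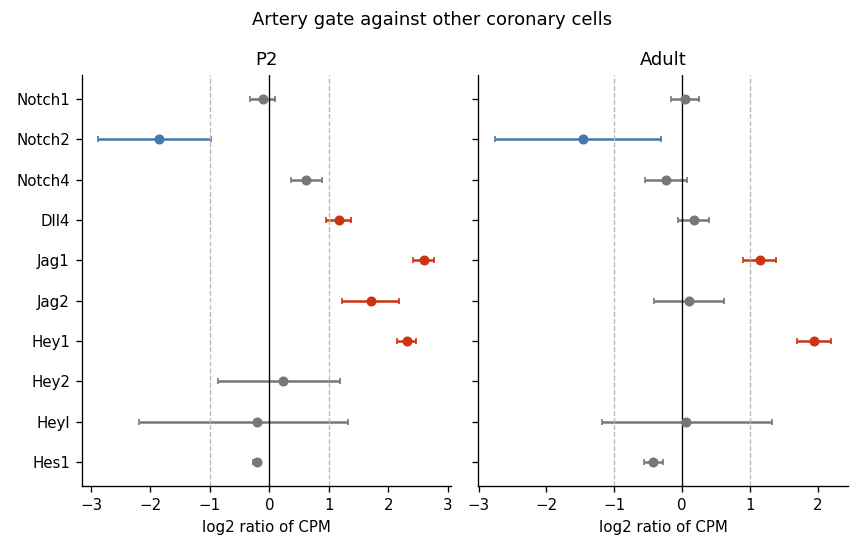
Log2 ratio of the CPM of coronary cells with the artery gate to coronary cells without it (horizontal axis) at P2 and in the adult, with exact 95% intervals for counting error; dashed lines mark 2-fold and colours mark ratios past it (red higher, blue lower, grey between). Jag1 and Hey1 lie past 2-fold at both stages, and Dll4 and Jag2 at P2 alone.

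Between stages, coronary cells differed in Dll4 and Hey1 from E12 to E15. Dll4 went from 15.1 CPM (3.11 to 44.1) to 54.01 CPM (42.03 to 68.4), a ratio of 3.58 (1.18 to 17.8), and Hey1 from 10.05 CPM (1.22 to 36.3) to 70.5 CPM (56.7 to 86.6), a ratio of 7.01 (1.89 to 58.8). These 2 of 10 members were past 2-fold upwards, against 11.8% of all genes, and Notch2 was past it downwards (6.07%). The E12 side rests on 3 and 2 UMIs in 102 cells, so that both ratios are loose. Of these cells 28 held a lymphatic UMI, and none of the 28 held Dll4 or Hey1, where 87 of 1092 coronary cells of E15 held a lymphatic UMI. The part of lymphatic cells in these ratios was not tested. As shares, neither level of E12 was above that of the free RNA, whose amount in a cell was not estimated. In endocardial cells Dll4 and Hey1 had ratios of 1.08 (0.712 to 1.65) and 1.26 (0.795 to 2.01) over the same step. Hey2 was the 1 member past 2-fold there, downwards, at 0.376 (0.171 to 0.769) (all genes 5.28% lower and 4.13% higher).

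From E15 to P2, Hes1 was the 1 member at least 2-fold higher in both classes, with ratios of 6.89 (5.93 to 8.06) in coronary and 2.87 (2.57 to 3.22) in endocardial cells, where 18.4% and 13.8% of all genes were as much higher. In endocardial cells Notch2 was lower, at 0.364 (0.291 to 0.456) (all genes 5.11%), and no member of coronary cells was at least 2-fold lower (5.2%). Dll4 and Hey1 of coronary cells stayed within 2-fold, at 0.831 (0.65 to 1.08) and 0.945 (0.763 to 1.18). The median gene shifted by 0.252 (log2) in coronary cells over this step, and Notch4 and Jag1, at 0.583 (0.46 to 0.747) and 0.649 (0.528 to 0.806), were lower against a median that was higher.

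From P2 to the adult, 4 members of coronary cells were at least 2-fold higher (Dll4, Jag1, Jag2 and Heyl; all genes 10.8%) and 3 lower (Notch2, Hey2 and Hes1; 14%). All 3 ligands were thus higher in the adult. Dll4 had a ratio of 2.25 (2.04 to 2.5), Jag1 of 2.02 (1.82 to 2.23) and Jag2 of 2.62 (2.07 to 3.32). Hey1 was just short of 2-fold, at 1.99 (1.83 to 2.17). The Heyl ratio of 2.68 (1.51 to 4.72) rests on 30 UMIs at P2 and 25 in the adult. Mural markers summed to 50.01 and 411 CPM in the same cells, and their part in the Heyl ratio was not tested. Since artery-gated cells made up a larger share of coronary cells in the adult, the levels were also compared without them. Dll4 went from 37.8 to 95.1 CPM in coronary cells outside the artery gate, Jag1 from 28.6 to 62.9 and Jag2 from 5.84 to 19.8, while Hey1 went from 41.7 to 54.3 CPM. These cells still carried the 4 genes of the artery gate, at 86.1 CPM at P2 and 555 CPM in the adult, and the part of cells under the gate was not tested. Within artery cells Hey1 was 207 and 208 CPM and Jag2 19.1 and 21.2 CPM, with overlapping intervals. Dll4 was higher in artery cells of the adult, at 107 CPM (96.2 to 119) against 84.9 CPM (74.98 to 95.8) at P2. Jag1 was lower in artery cells of the adult, at 139 CPM (126 to 152) against 173 CPM (158 to 188) at P2. Over all coronary cells, the Jag1 ratio was 1.56 without cells holding a UMI of a proliferation gene. In endocardial cells Dll4 and Hey1 were past 2-fold upwards (all genes 11.4% higher and 10.5% lower), from 6 and 10 adult UMIs in 65 cells.

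At P2 and in adult coronary cells, Hes1 was higher in cells rich in immediate early genes, which answer within minutes to stimulation and to the handling of tissue. The 8 genes of that list (Fos, Jun, Egr1 and others) summed to 457, 844, 5519 and 7724 CPM in coronary cells and 931, 1071, 2276 and 1596 in endocardial cells. At P2, the 1700 coronary cells (39.9%) with over 0.5% of their UMIs in this list held 1596 CPM of Hes1 (1568 to 1623). The other coronary cells held 487 CPM (475 to 499.6). In the adult the values were 523 and 153 CPM, and in endocardial cells of P2 975 and 482 CPM. The intervals of the same split overlapped in endocardial cells of E12, where Hes1 was 125 and 209.97 CPM, in both classes of E15 and in endocardial cells of the adult. Without the cells over 0.5%, an alternative chosen after the data were seen, the coronary to endocardial ratio of P2 went from 1.77 to 1.01, and the adult one from 1.1 to 0.587. The step from E15 to P2 was still 3.64-fold in coronary and 2.69-fold in endocardial cells without them.

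**Figure D4:**
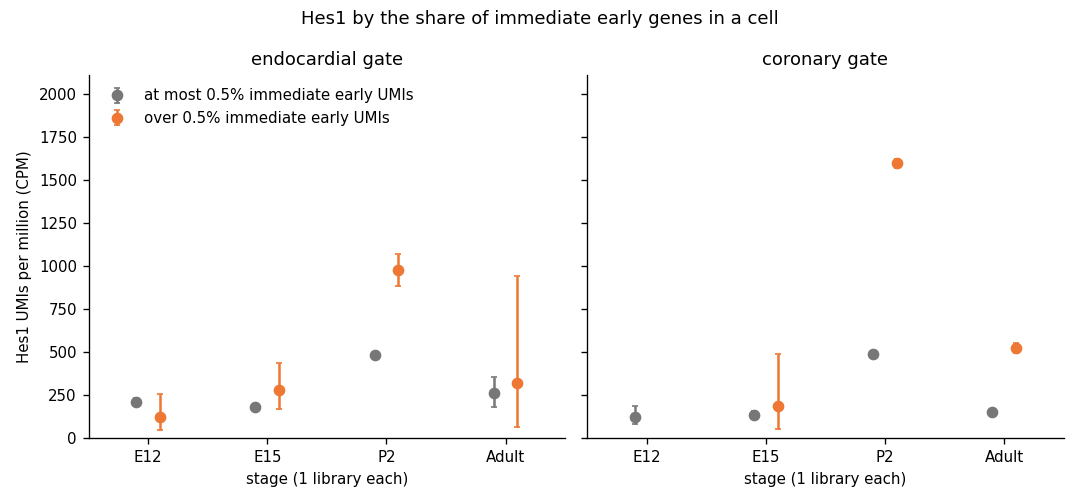
Hes1 in CPM (vertical axis, linear) by stage, in endocardial (left) and coronary cells (right), split by whether immediate early genes held at most (grey) or over (orange) 0.5% of the UMIs of a cell. Each point is a class of 1 library with exact 95% Poisson intervals, and no coronary cell of E12 was over 0.5%. At P2 the orange coronary point stands at 1596 CPM and the grey one at 487 CPM.

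Whether ligand and target share cells was read from cells with and without a UMI of the ligand, each cell thinned to 500 UMIs so that deeper cells do not show every pair more often. No coronary cell of E12, P2 or the adult was too shallow for this, and 65 were at E15. In coronary cells of the adult, Hey1 was found in 9.74% of 195 (5.97% to 14.8%) cells with Dll4 and in 5.63% of 3656 (4.91% to 6.43%) cells without it. With Jag1 it was found in 13.1% of 153 (8.17% to 19.5%) and without in 5.54% of 3698 (4.83% to 6.33%) cells. At P2, the shares were 9.68% of 93 (4.52% to 17.6%) cells with Jag1 and 2.76% of 4169 (2.28% to 3.3%) without. For Dll4 at P2 they were 4.4% of 91 (1.21% to 10.9%) and 2.88% of 4171 (2.39% to 3.43%), from 4 double-positive cells, and this was not a difference beyond counting error at that depth. The Jag1 shares lay apart at both stages, while the Dll4 intervals overlapped at both. Overlap does not show that shares are equal, and in the adult the Dll4 intervals had only 5.97% to 6.43% in common. Whether the 2 ligands differ in this was not tested.

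Ligands and Hey1 were both higher in artery cells, and the shares were therefore also taken within and outside the artery gate. Within artery cells of the adult Hey1 was in 19.1% of 94 (11.8% to 28.6%) cells with and 9.12% of 1644 (7.78% to 10.6%) without Jag1. Outside the artery gate the shares were 3.39% of 59 (0.413% to 11.7%) and 2.68% of 2054 (2.02% to 3.47%). For Dll4 in the adult they were 13.8% of 87 (7.34% to 22.9%) against 9.45% of 1651 (8.08% to 10.96%) in artery cells and 6.48% of 108 (2.65% to 12.9%) against 2.49% of 2005 (1.86% to 3.27%) in the others. At P2 the Jag1 shares were 13.3% of 45 (5.05% to 26.8%) against 8.03% of 573 (5.94% to 10.6%) in artery cells and 6.25% of 48 (1.31% to 17.2%) against 1.92% of 3596 (1.5% to 2.42%) in the others, with overlapping intervals in both. The Jag1 difference was thus above counting error within artery cells of the adult and not outside them, and the difference between these 2 groups was not tested.

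At full depth the shares were larger. At P2 Hey1 was in 34.1% of 713 cells with Dll4 and 16.4% of 3549 without, and in 32.4% of 527 with and 17.5% of 3735 without Jag1. In the adult the shares were 23.6% of 546 and 13.6% of 3305 for Dll4 and 32.9% of 428 and 12.7% of 3423 for Jag1. Free RNA can give a UMI to a cell that does not express a gene. Blood cells, gated on erythroid or macrophage genes and not expected to carry these genes, numbered 35, 22, 0 and 6 from E12 to the adult, with a median of 2136, 1239.5 and 2158 UMIs where there were any, and none held Hey1 or Dll4. With so few of them, they allow no useful limit at P2 or in the adult. In endocardial cells of P2, at a median of 4534 UMIs, Hey1 was in 12.7% of 63 cells with and 10.9% of 990 without Dll4, shares that did not differ beyond counting error.

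Hes1 was read in the same way. At P2, thinned, it was in 38.5% of 91 (28.4% to 49.2%) coronary cells with Dll4 and 29.9% of 4171 (28.5% to 31.3%) without, and in 24.7% of 93 (16.4% to 34.8%) with and 30.2% of 4169 (28.8% to 31.6%) without Jag1. In the adult the Jag1 shares were 8.5% of 153 (4.6% to 14.1%) and 11.7% of 3698 (10.7% to 12.8%). For Dll4 in the adult they were 14.4% of 195 (9.76% to 20.1%) and 11.5% of 3656 (10.4% to 12.5%). Each of these 4 pairs of intervals overlapped, as did those within and outside the artery gate. At full depth Hes1 was in 82.6% of 713 (79.6% to 85.3%) P2 cells with Dll4 and 74.8% of 3549 (73.3% to 76.2%) without, where the intervals were apart, while those for Jag1 at P2 and for both ligands in the adult overlapped. Hey2, though scarce, was more often found with Jag1 at P2, with 5.5% of 527 (3.72% to 7.81%) cells at full depth against 0.616% of 3735 (0.391% to 0.923%), and 2 of 93 against 4 of 4169 thinned. Jag2 was found in 46 thinned coronary cells of the adult, 4 of them with Hey1. At E15, 25 thinned coronary cells held Dll4 and 33 Jag1, with 1 and 2 of them holding Hey1, and at E12 1 cell held Dll4, so that no difference was detectable at these depths.

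**Figure D5:**
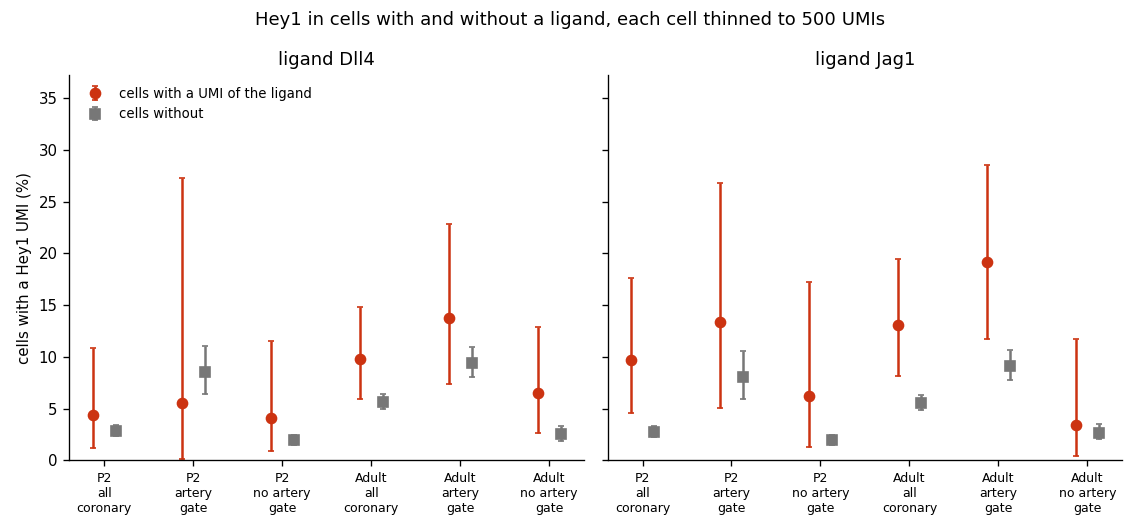
Share of cells with a Hey1 UMI (vertical axis, percent) among cells with (red circles) and without (grey squares) a UMI of Dll4 (left) or Jag1 (right), each cell thinned to 500 UMIs, for all coronary cells, coronary cells with and coronary cells without the artery gate at P2 and in the adult. Bars are exact 95% binomial intervals for counting error. The red and grey intervals for Jag1 are apart in all coronary cells of both stages and in artery cells of the adult.

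Apln and Esm1 both mark sprouting tip cells, and coronary cells with a UMI of only one of them were compared. At E12, 6 coronary cells held Apln alone and 5 Esm1 alone, with 1 UMI of Dll4 in each group and none of Hey1 or Jag1, and no difference was detectable. At E15, 75 and 13 cells were found. Dll4 had 5 UMIs in Apln cells and 3 in Esm1 cells, a ratio of Esm1 to Apln cells of 3.72 (0.577 to 19.1), and Hey1 had 5 and 4, a ratio of 4.96 (0.984 to 23.03). Both intervals held 1. P2 and the adult were added after the data were seen. Hey1 was 160.05 CPM in Esm1 cells and 36.8 in Apln cells of P2, a ratio of 4.35 (3.14 to 5.96), and 209 and 36.1 CPM in the adult, a ratio of 5.78 (2.75 to 13.6). Dll4 had ratios of 1.69 (1.09 to 2.53) and 1.28 (0.711 to 2.31), and Jag1 of 2.18 (1.25 to 3.6) and 1.67 (0.593 to 4.86). Notch1 had ratios of 1.05 (0.62 to 1.67) and 2.76 (1.44 to 5.5). Hes1 went the other way in the adult, with ratios of 0.91 (0.803 to 1.03) and 0.614 (0.399 to 0.929). The artery gate was passed by 26 of 61 Esm1 cells and 49 of 837 Apln cells at P2, and by 72 of 103 and 18 of 111 in the adult, and its part in these ratios was not tested.

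The other genes of the pathway, 58 in all, cover further receptors and ligands, the fringe enzymes, ligand handling, receptor cleavage, the nuclear complex, receptor turnover and other targets. Between coronary and endocardial cells, 3 of the 42 with enough UMIs were at least 2-fold higher and 11 lower at E12 (all genes 5.74% and 17.9%). Of 45 such genes of E15, 3 were higher and 7 lower (all genes 6.33% and 13.6%). After birth 9 were higher and 8 lower among 52 genes of P2 (all genes 11.3% and 10.8%), and 4 and 7 among 47 of the adult (all genes 12% and 15%). Mfng, a fringe enzyme that adds sugar to Notch receptors and shifts their response towards Delta ligands, was higher in coronary cells at all 4 stages, with 116 against 16.5 CPM, a ratio of 7.04 (4.78 to 10.7) at E15 and 121 against 13.2 CPM, a ratio of 9.21 (2.54 to 76.2) in adult cells. Its relative Lfng was 26.1 against 2.61 CPM, a ratio of 10.0 (5.8 to 18.9) at P2. Nrarp, a target that limits the Notch complex, was 114 against 40.6 CPM, a ratio of 2.79 (2.11 to 3.72) at E15 and 54.1 against 6.6 CPM, a ratio of 8.2 (1.46 to 325) in adult cells. In adult endocardial cells 3 UMIs correspond to 19.8 CPM, so that the adult endocardial levels of Mfng and Nrarp rest on fewer. Dtx1, which acts on receptor turnover, was 8.42 against 0.401 CPM, a ratio of 20.98 (5.72 to 175) at P2.

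On the endocardial side stood the ligand-like Dlk1, with 45.4 against 543 CPM, a ratio of 0.0836 (0.063 to 0.109) at E15, the ligand Dll1, with 2.35 against 19.5 CPM, a ratio of 0.12 (0.0237 to 0.379) at E15, and Nr2f2, the venous regulator that opposes Notch, with 71.7 against 159 CPM, a ratio of 0.451 (0.413 to 0.492) at P2 and 31.2 against 198 CPM, a ratio of 0.158 (0.107 to 0.24) in adult cells. Dtx3, of the Deltex family, was also lower in coronary cells at all 4 stages, at 0.469 (0.415 to 0.53) at P2. Rbpj itself was at 0.152 (0.0038 to 0.878) at E12, from 1 coronary UMI.

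Within coronary cells, 4 of 51 pathway genes were at least 2-fold higher and 5 lower in artery cells at P2 (all genes 3.41% and 8.15%). In the adult 0 of 47 were higher and 2 lower (all genes 1.96% and 4.24%). Hes5, a classical target, was 6.14 against 0.401 CPM, a ratio of 15.3 (6.16 to 43.1) at P2, Lfng 50.1 against 21.8 CPM, a ratio of 2.29 (1.89 to 2.77), and Efnb2, the arterial ephrin, 174 against 82.4 CPM, a ratio of 2.12 (1.91 to 2.34). Nr2f2 was lower in artery cells at both stages, at 25.5 against 79.8 CPM, a ratio of 0.32 (0.251 to 0.401) and 17.2 against 45.7 CPM, a ratio of 0.378 (0.272 to 0.518). Between P2 and the adult, coronary cells were higher in Notch3, a receptor of mural cells, at 8.93 against 1.41 CPM, a ratio of 6.33 (3.98 to 10.3), where mural markers summed to 50.01 and 411 CPM. They were lower in Nrarp, at 54.1 against 144 CPM, a ratio of 0.375 (0.335 to 0.42), and Dtx1, at 1.25 against 8.42 CPM, a ratio of 0.149 (0.0633 to 0.3). Nrarp was thus lower over the step in which the 3 ligands were higher.

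Genes alike across classes and stages were found by Pearson correlation of log2(CPM + 10) over 10 groups of at least 50 cells (endocardial, coronary without and coronary with the artery gate), against 9666 genes. The artery groups of E12 and E15, with 0 and 14 cells, were left out. Groups share libraries and depth, the genes named are the top of 9666 over only 10 groups, and the values are descriptions. Dll4 and Hey1 had r = 0.865, Dll4 and Jag2 0.86 and Dll4 and Notch4 0.843, while Jag1 and Hey1 had 0.436. Notch2 ran against Jag2 (-0.922), Dll4 (-0.759) and Hey1 (-0.747). The genes most like Dll4 were Gfod1 (r = 0.957), Spata13 (0.954) and Mcf2l (0.951). Those most like Hey1 were Trak1 (r = 0.971), Bnip3 (0.952) and Eogt (0.929), and those most like Jag1 S100a4 (r = 0.93), Arl15 (0.888) and Atp13a3 (0.867). For Notch1 they were Ubr4 (r = 0.9), Fuz (0.875) and Tpcn1 (0.864), for Notch2 Bex4 (r = 0.987), Zfp9 (0.987) and Pkdcc (0.979) and for Notch4 Ubald1 (r = 0.929), Halr1 (0.88) and Trim3 (0.874). For Jag2 they were 8430408G22Rik (r = 0.989), Myo10 (0.986) and Myo1e (0.981), and for Hes1 H3f3b (r = 0.978), Commd10 (0.972) and Hnrnpk (0.952). For Hey2 they were Mapk1ip1l (r = 0.975), Adgra3 (0.962) and Mknk2 (0.959), and for Heyl Gucy1a3 (r = 0.951), Zscan26 (0.947) and Cped1 (0.945). Hey2 and Heyl held 158 and 94 UMIs over the 10 groups, under the 200 asked of the compared genes. Counting error is large at such counts, and nothing is read from these last lists.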

How the data were processed

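CD31+/CD45- heart cells were profiled with 10x 3′ (v2) libraries, 1 per stage from pooled animals. The authors aligned reads to mm10 with Cell Ranger 2.2 and deposited raw UMI counts per gene and cell; the file of E12 holds all droplets and was cut at the UMI minimum that the gate rule gives. Cells over the limits of the study (UMIs 4000, 3000, 12000 and 5000; genes 1500, 1300, 4000 and 2000; mitochondrial share 10, 10, 20 and 20%) or with a Scrublet score (scanpy 1.11.5) over 0.15 (2.43% to 9.45% of cells) were left out. UMIs were summed per class and stage and divided by all UMIs of the class. Ratios carry exact conditional binomial, levels exact Poisson and shares exact Clopper-Pearson 95% intervals (scipy 1.17.1), and the ratio step was tested on simulated data. Intervals and floors cover counting error only. Named pathway genes are the up to 5 with the ratios furthest from 1 per comparison and direction. The members and lists were chosen with earlier results of these data known. Positions are from GRCm38 and GENCODE vM21, promoters from RefSeq (GRCm38.p6).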

Additional observations from a re-analysis of the deposited data

Results flagged for a closer look

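Hes1 had coronary to endocardial ratios on opposite sides of 1 at different stages. The ratio was 1.77 (1.7 to 1.84) at P2, and 0.605 (0.387 to 0.905) at E12 and 0.735 (0.609 to 0.885) at E15. Each interval lay on its own side of 1, with 1 library per stage, and the difference between stages was not tested. Immediate early genes were in sum 5519 against 2276 CPM in coronary and endocardial cells of P2, and 844 against 1071 CPM at E15. Without cells over 0.5% in these genes the P2 ratio was 1.01. The study had removed cells expressing immediate early genes, which it considered stressed by the preparation.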

How the results depend on the processing

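Of 1423 member ratios recomputed under other settings, 1341 stayed within the main 95% interval, 79 moved beyond it and 3 reversed, and of 565 recomputed ratios past 2-fold 485 kept their call. These totals include settings that change only the minimum of UMIs or the fold, which cannot move a ratio. At 1.5-fold and with no minimum, all 44 calls were bound to be kept, so the totals overstate how stable the ratios were. The 3 reversals were at E15, where 14 artery cells were compared: Notch1 was 0.732 and Dll4 0.987 with the artery gate alone, and Hey1 0 with that gate at 5 UMIs. The artery comparisons had 12 member ratios past 2-fold over all stages, and 5 with gates set at 500 UMIs per cell, where no coronary cell of E15 passed the artery gate. The stage steps had 16, with 9 at a minimum of 100 UMIs and 30 at 1.5-fold. In the main setting coronary and endocardial cells had 16 such ratios, with 12 to 24 under the others. Without thinning, the share of Hey1 cells was higher beside Dll4 by 17.7 points at P2 (main 1.52) and 10.1 in the adult (main 4.11), and beside Jag1 by 14.96 at P2 (main 6.92) and 20.2 in the adult (main 7.53). That last value was 13.995 at 1000 UMIs per cell and 0.712 outside the artery gate. The cause was not tested. Rescaling by the median gene moved the share of higher genes among all those past 2-fold from 44.5% to 60.9% between adult coronary and endocardial cells, from 73.005% to 55.9% and from 77.9% to 59.6% from E15 to P2 in endocardial and coronary cells, and from 65.9% to 77.7% from E12 to E15 in coronary cells. Leaving out cells rich in immediate early genes, with a lymphatic UMI or dividing was chosen after the data were seen. No paired analysis was possible because each stage is 1 library. Depth limits the 14 artery cells of E15 most, then the 65 endocardial cells of the adult and the 102 coronary cells of E12.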

Other observations

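The artery-gated cells of E12 (287 cells, mesenchymal and mural markers at 2493 and 1968 CPM) held Notch2 at 296 CPM and Notch1 at 24.1 CPM, where endocardial cells of E12 held 103 and 91.7 CPM. Jag1 was 279 CPM and Dll4 2.41 CPM, and among the targets Heyl stood at 40.9 CPM and Hes1 at 132 CPM.

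Cells in neither the endocardial, the coronary nor the artery gate numbered 3359, 2381, 187 and 68 from E12 to the adult. Notch2 was 150.1, 120.01, 27.1 and 128 CPM in them, and Hey2 27.6, 10.1, 23.03 and 31.96 CPM. Hes1 was 133, 162, 564 and 121 CPM, highest at P2 as in the gated classes.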
